A study of Mus musculus with 19 samples.

Results

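The cytosolic ribosomal protein genes were followed across 19 RNA libraries of mouse hind-limb muscle. Members were taken by symbol: Rps or Rpl followed by a number, or Rpsa, Rplp0, Rplp1 or Rplp2. Of 107 symbols so written, 10 ribosomal S6 kinase genes and 10 pseudogene symbols were left out, which gave 87 members among the 14707 genes of the deposited table. They held 35 small subunit (Rps) and 52 large subunit (Rpl) symbols. By role, 77 were core genes of the ribosome (31 small, 46 large), and 5 were classed as paralogs (Rpl3l, Rpl22l1, Rps27l, Rpl36al and Rps4l). Rps4l was kept by its symbol, although RefSeq annotates it as a transcribed pseudogene. Another 3 were retrocopies or like genes (Rpl32l, Rpl37rt and Rps27rt), and Rpl7l1 and Rps19bp1 carried the symbol without being a core protein.

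The mice were male, of a genotype that the labels spell C657Bl/6J, and came in 4 groups. Young lean (n = 4) and young obese (n = 5) mice were 6 months old, and aged lean (n = 5) and aged obese (n = 5) mice were 20 to 21 months old. Lean groups ate a diet with 12% of its calories from fat and obese groups one with 60%. The sample labels name gastrocnemius and single-end reads, whereas the series' design text names tibialis anterior, paired-end reads and aged mice of 21 to 24 months. All 12 skeletal muscle fibre markers examined were present in the table, and their summed values were far above those of each of the 9 other cell type lists in every group. No source used here ties each library to its own animal, so the p-values measure the spread between these libraries, which may be partly technical. The summed values of a library, divided by the estimated value of 1 read, came to 15.1 to 17.8 M. This is a rough figure for the listed genes only, since whole reads were not recovered from the signal.

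A cytosolic ribosome joins a small and a large subunit, each built in the nucleolus from ribosomal RNA and from proteins that are imported after translation. Each protein usually has 1 functional gene and many processed pseudogenes. Their mRNAs typically begin with a C followed by a run of pyrimidines, the terminal oligopyrimidine (TOP) motif, through which mTOR signalling and the protein LARP1 control translation, so that ribosomal protein output can change with little change in mRNA. In striated muscle Rpl3l can take the place of the general protein Rpl3 in the large subunit.

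Start-site sequences are shown for 8 members because the results below turn on them and because they show which members begin with a pyrimidine run. Each is 30 bases, from 10 bases before the annotated start to 20 from the start on, taken from RefSeq on GRCm38.p6. The build of the deposited table is mm39, so these coordinates are not those of the authors' alignment. Capitals mark a run of at least 5 C or T that covers the annotated start base.
Rps6, chr4:86857348-86857377, minus strand: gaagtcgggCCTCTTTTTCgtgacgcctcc
Rpl7a, chr2:26910797-26910826, plus strand: CTCTTCTTTCTTTCTCCagcagccgagcaa
Rps27, chr3:90213629-90213658, minus strand: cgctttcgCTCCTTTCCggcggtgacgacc
Rps27rt, chr9:114982720-114982749, minus strand: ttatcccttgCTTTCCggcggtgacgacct
Rpl10, chrX:74270806-74270835, plus strand: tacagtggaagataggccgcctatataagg
Rps2, chr17:24720053-24720082, plus strand: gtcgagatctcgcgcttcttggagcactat
Rpl22l1, chr3:28805498-28805527, plus strand: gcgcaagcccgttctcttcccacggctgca
Rpl36al, chr12:69184048-69184077, minus strand: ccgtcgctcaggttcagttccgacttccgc
Among these, Rps6, Rpl7a, Rps27 and its near-identical copy Rps27rt had such a run at the annotated start, and the others did not. Of the 87 members, 66 had a promoter in the RefSeq table. Among core members 20 of 67 promoters (29.9%) held the run, against 10.1% of all 32851 promoters and 9.1% of those of the other genes in the deposited table. An annotated start a few bases from the true one would miss the run, so a missing match says only that these letters are not at that base.

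The core members took a small and steady share of the summed values, 0.983 to 1.04% in young lean, 0.909 to 1.04% in young obese, 0.949 to 1.11% in aged lean and 0.910 to 1.07% in aged obese libraries. The 4 ranges overlapped. Scaled by the length of 1 annotated transcript per gene, the stalk protein Rplp0 was highest at 7912 normalized units per kb. The stalk protein Rplp1 followed at 7322 and Rpl4, which lines the exit tunnel, at 6882. Rpl3l ranked 6th of 87 at 6412 per kb, while Rpl3 ranked 79th at 620. The median of the core members was 2265 per kb. These ranks depend on the transcript chosen, which was 1033 bases long for Rpl3l, 1351 for Rpl3, 3706 for Rps20 and 5130 for Rps15a. The median length over the core members was 737 bases. Levels of different genes are therefore compared only roughly. Without the correction for length, Rplp0 (mean 10745 over all libraries), Rpl4 (10584) and the small subunit protein Rpsa (6947) had the highest values, and Rps4l (48.5), Rps6 (85.5) and Rps19bp1 (87.2) the lowest.

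The low value of Rps6, the phosphorylated target of the S6 kinases, came with a high value on its pseudogene. Rps6 averaged 85.5 and Rps6-ps4 averaged 4605, which is 98.2% of the pair's sum, and 84.6% of the 50-base windows of the Rps6 transcript were identical in that copy. In all, 19 members had at least 1 row in the table that was counted as a copy, by identical windows or by a pseudogene symbol, with 20 copies listed. The identity varied: the copies held 98.6% of the windows of Rps27 but 12.8% of those of Rps19 and 14.5% of those of Rpl32, and no window value was obtained for Rplp2-ps1 and Rps18-ps4. Rpl37 stood at 388 and Rpl37rt at 1676, and Rplp2 at 698 and Rplp2-ps1 at 1351. Rps27 (1224) and Rps27rt (1206) had nearly equal values in every library, with a log2 ratio of the copy to the gene between -0.04 and -0.01. For pairs that share most of their windows, such as these and Rps6, the deposited rows cannot say which copy was transcribed, and the members' values are uncertain to that extent. In the reference annotation as a whole, 84 of the 87 members shared at least 1 such window with some other gene. The copy was higher than the member in 9 of the 20 pairs, of which the plot of member and copy values shows 19.

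**Figure D1:**
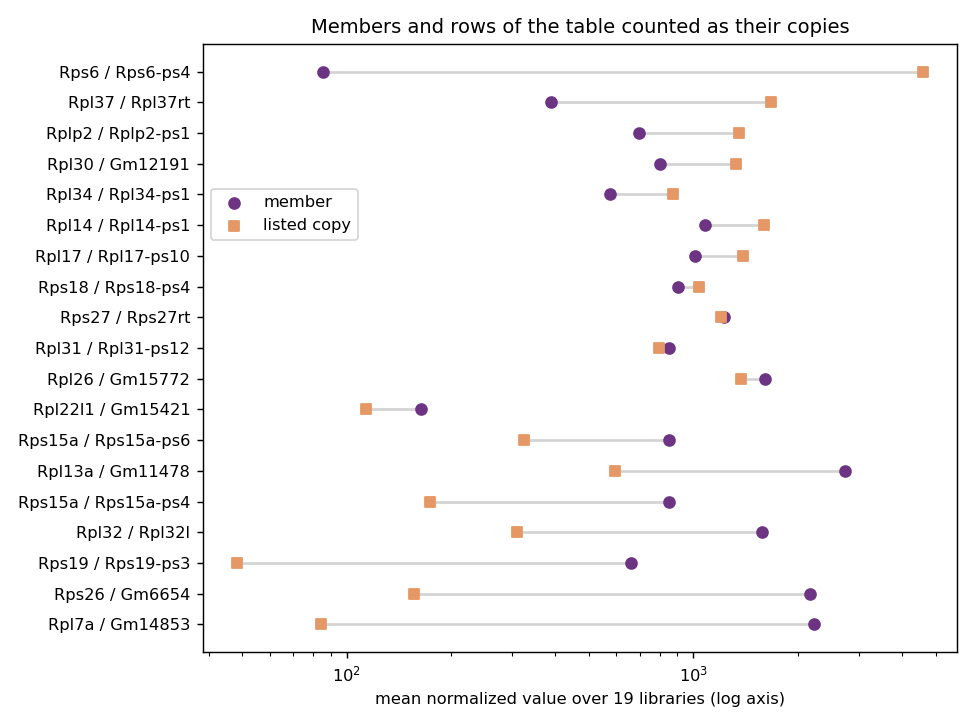
Mean normalized value over 19 libraries (log axis) of members and of the rows counted as their copies, 1 pair per line (19 pairs). Rps6 (85.5) and Rps6-ps4 (4605) lie farthest apart, and Rps27 (1224) and Rps27rt (1206) coincide.

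The core members varied little between libraries of a group. Their median residual SD was 0.099 on the log2 scale, against 0.199 over all 13367 genes tested. Among genes with a mean of 500 to 5000, it was 0.099 for the 67 core members and 0.131 for all 3934 genes. The most variable were Rps6 (0.326), Rps4l (0.314), Rps19bp1 (0.273), Rpl36 (0.261) and Rpl3 (0.246), and the least variable were Rps7 (0.0572), Rpl15 (0.0601) and Rplp0 (0.062).

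What variation there was ran across many members of a library at once. The number of core members above their own mean over the 19 libraries was 47, 66, 38 and 42 of 77 in young lean 1 to 4, and 8, 19, 50, 16 and 37 in young obese 1 to 5. In the aged lean libraries it was 33, 72, 56, 15 and 24, and in the aged obese ones 62, 4, 59, 42 and 62. The extremes, 72 in aged lean 2 and 4 in aged obese 2, both lay in aged groups, and all 4 groups overlapped. The median deviation of the core members spanned only -0.14 (aged obese 2) to 0.11 (aged lean 2 and young lean 2) on the log2 scale.

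**Figure D2:**
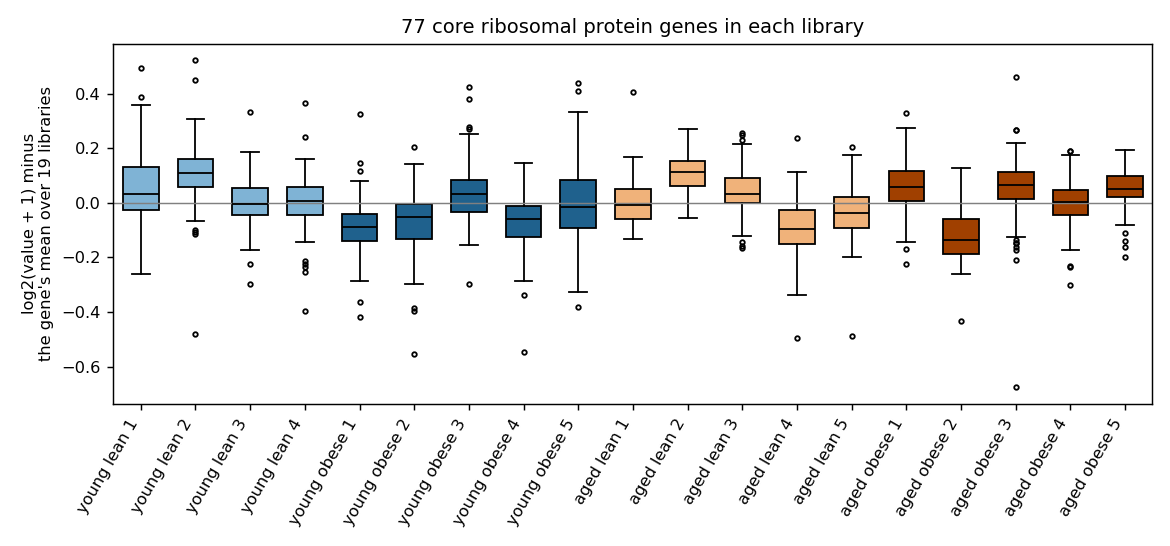
Deviation of each of the 77 core members from its own mean over 19 libraries, in log2(value + 1), as 1 box per library (line, median; box, quartiles; whiskers, the last value within 1.5 box lengths; points, genes beyond), coloured by group. Medians run from -0.14 in aged obese 2 to 0.11 in aged lean 2 and young lean 2.

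On the high-fat diet in young mice the members' estimates were small and mostly downward, and a smaller share was called than of all genes. Rps2, a small subunit protein near the mRNA entry channel, rose, and 5 members fell: Rps27, Rps27rt, Rpl7a, Rps7 and Rpl10. A gene counted as changed when its limma p, adjusted over all genes tested by the Benjamini-Hochberg method, was under 0.05. These 6 of 87 members (6.9%) stood against 11.0% of all genes tested (5.70% rising, 5.33% falling). An unadjusted p under 0.05 was found for 22 members (25.3%), against 28.6% of all genes. The median log2 change of the members was -0.08, with 70 of 87 negative, beside a median of 0.01 over all genes, of which 48.8% were negative. Many members of a library moved together, so these 70 are not independent observations. The small subunit (median -0.07) and the large subunit (-0.08) core genes had near-equal medians.

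In every young obese library Rps2 was higher than in every young lean one. Its values were 5423, 4799, 4401 and 4319 in young lean 1 to 4 and 5687, 5503, 6234, 5689 and 5904 in young obese 1 to 5. It rose by 0.30 on the log2 scale (SE 0.07, limma adjusted p = 0.012), an increase of 22.9%. The aged lean libraries held 4968, 5224, 4916, 4736 and 4842 and the aged obese ones 5273, 4691, 4829, 5319 and 5457, and these aged groups overlapped.

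Rps27, a zinc-binding protein of the small subunit, moved the other way. It stood at 1189, 1468, 1376 and 1438 in young lean and at 1041, 1086, 1093, 1030 and 1139 in young obese libraries, with no overlap. The fall was 0.34 on the log2 scale (log2 change -0.34, SE 0.08, limma adjusted p = 0.0164), and its copy Rps27rt was at -0.33 (adjusted p = 0.0181), which is not a second observation given their shared sequence. Without young lean 2 the adjusted p of Rps27 was 0.0599 and that of Rps27rt 0.0639, and without young lean 4 that of Rps27rt was 0.0519.

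Of the other falls, Rpl7a, a large subunit protein, was at 2296, 2744, 2526 and 2274 in young lean and 1918, 2022, 2171, 2174 and 2108 in young obese libraries. Rps7, which also binds Mdm2, was at 2210, 2198, 2159 and 2268 against 1925, 1923, 2106, 1922 and 1891. Rpl10, which joins the large subunit late in its assembly, was at 2652, 2990, 2659 and 2870 against 2476, 2306, 2567, 2443 and 2262. In all 3 genes every young obese library lay below every young lean one, with young obese 3 or young obese 4 closest to the young lean range. Their log2 changes were -0.24 for Rpl7a (SE 0.07, limma adjusted p = 0.0246), -0.18 for Rps7 (SE 0.05, 0.0343) and -0.21 for Rpl10 (SE 0.06, 0.0409). Leaving out 1 library ended the call of Rpl7a in 3 of 19 runs, of Rps7 in 6 and of Rpl10 in 8, with adjusted p up to 0.097, 0.0838 and 0.131.

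Rps4l, Rpl22l1 and Rps28 had larger estimates than any called member but wider errors, and missed the threshold. Rps4l, annotated as a transcribed pseudogene in RefSeq, was at 0.57 (SE 0.21, limma adjusted p = 0.0812), Rpl22l1 at -0.38 (SE 0.14, 0.0789) and Rps28, a small subunit protein, at -0.38 (SE 0.15, 0.096). The 95% interval of the log2 change lay within ±0.5 for 81 of the 87 members, so larger changes than that were outside the interval for all but 6 genes. In bulk RNA a change in the number of cells of a type and a change in RNA per cell cannot be told apart.

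Markers of connective tissue moved in this same comparison. Of 10 tendon markers 7 rose and none fell, and their summed values were 13380 to 32216 in young obese libraries against 5849 to 9653 in young lean ones. The mesenchymal fibro-adipogenic progenitors of muscle were followed with 12 markers, of which 5 rose and none fell, with sums of 35731 to 50340 against 29481 to 40158. None of the 15 macrophage markers passed the test, with sums of 3191 to 13865 against 2175 to 6147. No marker of these 3 lists was at 0 in every library. The tendon score was 7.67 to 9.13 in young obese libraries, above those of all other groups (5.43 to 7.22), so the score and this group cannot be told apart. With the score as covariate no member was called in young mice, while the estimates were 0.36 for Rps2, -0.29 for Rpl7a, -0.28 for Rps27, -0.27 for Rps27rt, -0.11 for Rpl10 and -0.10 for Rps7. With a clock score none was called either, and these 6 estimates were 0.23, -0.23, -0.28, -0.27, -0.18 and -0.20 in the same order. The clock score was -3.2 to -1.32 in young lean and -2.12 to -0.48 in young obese libraries, and these ranges overlapped. Of 9 clock genes 2 rose and 1 fell in this comparison. The lost calls do not show that the changes were absent. The number of members called was 1 without young lean 2, 3 without young lean 3, young lean 4 or young obese 1 in turn, and 0 when the model held only the young groups.

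**Figure D3:**
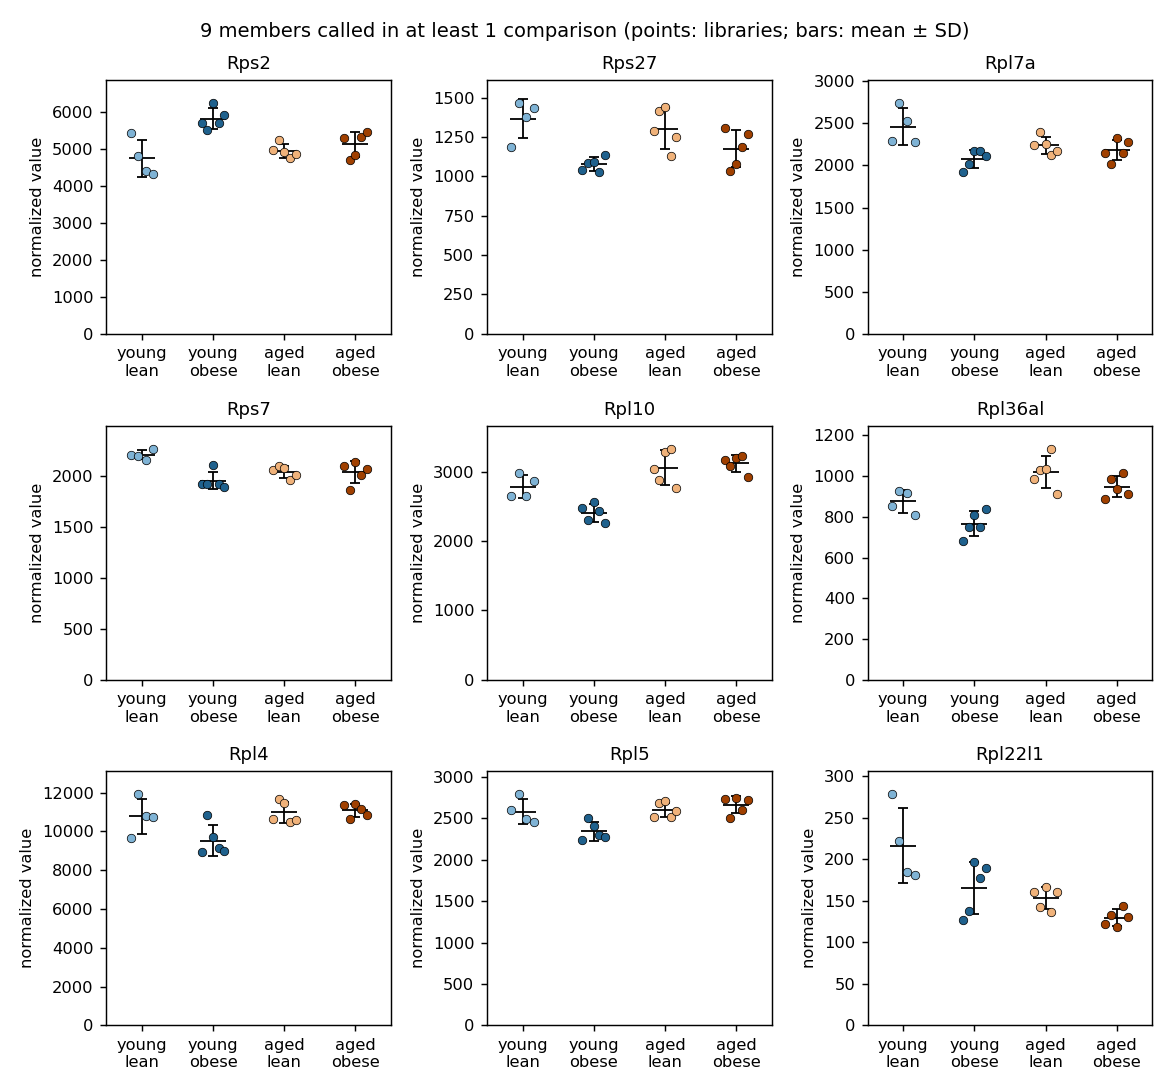
Normalized values of 9 members called in at least 1 comparison, by group, with 1 point per library and bars for the mean ± SD (n = 4, 5, 5 and 5), each axis starting at 0. Rps2 is highest in young obese libraries, Rps27, Rpl7a and Rps7 are lower in young obese than in young lean ones, and Rpl22l1 is lowest in aged obese libraries.

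The high-fat diet in aged mice left the members near their levels on the lean diet. None of 87 was called by limma, against 0.292% of all genes (0.135% rising, 0.157% falling). An unadjusted limma p under 0.05 was found for 1 member (1.15%), against 11.4% of all genes. The median log2 change was 0.01 with 38 negative. The 95% interval lay within ±0.5 for 84 members. The interaction, which takes the diet effect of aged mice and subtracts that of young mice, was called for no member and for 2.98% of all genes, 1.29% upward and 1.69% downward. Its median over the members was 0.10, and 7 (8.05%) had an unadjusted p under 0.05, against 22.9% of all genes. The different counts in young and aged mice are therefore not shown to be a different response for any single member.

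On the lean diet, age changed no member by the same test, against 4.08% of all genes (2.09% rising, 1.99% falling). An unadjusted p under 0.05 was found for 8 members (9.2%), against 21% of all genes. The median was -0.04 with 58 negative, and 79 intervals lay within ±0.5. The largest estimates were those of Rpl22l1 (-0.48, SE 0.14, limma adjusted p = 0.0574), Rpl3 (0.46, SE 0.15, 0.083) and Rps28 (-0.44, SE 0.15, 0.0883). Without young obese 3 there were 2 calls, and 1 without young lean 1, young lean 4 or young obese 1 in turn.

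With age on the high-fat diet 4 members rose and 1 fell. The rises were Rpl10, Rpl36al, Rpl5 and Rpl4, all of the large subunit, and the fall was Rpl3l. These 5 of 87 (5.75%) stood against 9.02% of all genes, 4.16% rising and 4.86% falling. An unadjusted p under 0.05 was found for 18 members (20.7%), against 26.4% of all genes. The median log2 change was 0.05 with 28 negative, beside -0.00 over all genes. The comparison uses the young obese libraries, as the diet comparison in young mice does, so the 2 sets of values are not independent.

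Rpl10 had the lowest p of the members in any comparison. It was at 2476, 2306, 2567, 2443 and 2262 in young obese and at 3183, 3095, 3206, 3230 and 2933 in aged obese libraries, and the groups did not overlap. It rose by 0.38 on the log2 scale, or 29.9% (SE 0.06, limma adjusted p = 0.00117). The call held in all 19 runs that left out 1 library, and ended with the tendon score as covariate (log2 change 0.25, adjusted p = 0.445). Its values in aged lean libraries were 3047, 2888, 3291, 3342 and 2771, which overlapped those of young lean libraries, and that difference was 0.13 (SE 0.06, limma adjusted p = 0.241).

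Rpl36al, the paralog of the X-linked gene Rpl36a, also had its lowest group mean in young obese muscle. Its young lean libraries, at 855, 928, 918 and 808, overlapped the young obese ones. The diet difference in young mice was -0.19 (SE 0.07, limma adjusted p = 0.0871). Rpl36al was at 682, 752, 810, 751 and 840 in young obese and at 889, 984, 938, 1014 and 913 in aged obese libraries, with no overlap. The rise was 0.31 on the log2 scale (SE 0.07, limma adjusted p = 0.00976), while Rpl36a itself was at 0.11 (SE 0.09, adjusted p = 0.431). Between the lean groups Rpl36al was at 0.22 (SE 0.07, adjusted p = 0.0967).

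Rpl5, which with Rpl11 and the 5S RNA forms a particle that binds Mdm2, was at 2235, 2510, 2403, 2299 and 2271 in young obese and 2732, 2507, 2745, 2605 and 2721 in aged obese libraries. Rpl4 was at 8930, 10850, 9697, 9138 and 8966 against 11384, 10665, 11424, 11162 and 10864. For both genes young obese 2 reached into the range of the aged group, so that the groups overlapped. Rpl5 rose by 0.18 (SE 0.05, limma adjusted p = 0.0306) and Rpl4 by 0.23 (SE 0.07, 0.0395) on the log2 scale, and Rpl11 was at 0.03 (adjusted p = 0.859). Leaving out 1 library ended the call of Rpl5 in 6 of 19 runs and that of Rpl4 in 8.

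Here too the connective tissue markers moved, in the opposite direction. Of the 10 tendon markers 8 fell and none rose, with sums of 4019 to 9569 in aged obese against 13380 to 32216 in young obese libraries, and 5 of the 12 fibro-adipogenic progenitor markers fell, with sums of 27140 to 34928 against 35731 to 50340. No macrophage marker passed. With the tendon score as covariate no member was called, while the estimates were 0.31 for Rpl36al, -0.31 for Rpl3l, 0.25 for Rpl10, 0.11 for Rpl4 and 0.10 for Rpl5. With the clock score Rpl10 stayed called, and the others were at 0.27 (Rpl36al), -0.19 (Rpl3l), 0.20 (Rpl4) and 0.20 (Rpl5). Here too a lost call does not show that a change was absent. The number of members called was 2 without young obese 1 or young obese 5, and 3 without young obese 4, aged obese 1, aged obese 2 or aged obese 3 in turn. It was also 3 without aged lean 2 and aged obese 2 together, the libraries in which the core members stood highest and lowest.

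Aged obese and young lean muscle differed in 1 member, Rpl22l1, against 5.58% of all genes, 3.25% rising and 2.33% falling. Rpl22l1 is the paralog of Rpl22, whose protein is known to repress it in mouse cells. It was at 278, 222, 185 and 181 in young lean, 127, 138, 197, 178 and 189 in young obese, 160, 142, 167, 137 and 160 in aged lean, and 122, 133, 118, 144 and 131 in aged obese libraries. Every aged obese and every aged lean library lay below every young lean one, and these aged groups overlapped each other. The fall from young lean to aged obese was 0.72 on the log2 scale (log2 change -0.72, SE 0.14, limma adjusted p = 0.00476), and its value fell by 39.2%. Rpl22 was at 0.03 (SE 0.07, adjusted p = 0.859) in the same comparison. Of Rpl22l1's windows, 51.9% were shared with the row Gm15421 (mean 114), and the sum of both rows gave -0.67 (adjusted p = 0.0021). The call held in all 19 runs that left out 1 library. The median over the members was -0.02 with 49 negative, and 12 (13.8%) had an unadjusted p under 0.05, against 21.3% of all genes. Markers of other cells moved here too. Of 4 tested neutrophil markers 2 fell, and the sums of the 5 listed in the table were 74.9 to 626 in young lean against 10.2 to 24.4 in aged obese libraries, with none at 0 in every library (Ly6g, Mpo and Elane were not analysed). Of 14 adipocyte markers 2 rose and 1 fell, with sums of 37977 to 53686 against 35804 to 46649, and none of the 10 tendon markers passed. Their part in the change of Rpl22l1 was not tested. The number of members called was 3 without young lean 1, and 2 without young lean 4, young obese 2, young obese 3, young obese 5 or aged lean 4 in turn.

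The ratio of the striated muscle protein gene Rpl3l to the general gene Rpl3 was lower in both aged groups than in young lean muscle. Rpl3l was at 7424, 7065, 6321 and 5978 in young lean, 7728, 7524, 6629, 7203 and 7825 in young obese, 5631, 6342, 6692, 6123 and 6696 in aged lean, and 6269, 5609, 6191, 6500 and 6097 in aged obese libraries. Rpl3 was at 823, 588, 668 and 703 in young lean, 685, 558, 1101, 721 and 629 in young obese, 1087, 954, 961, 866 and 912 in aged lean, and 1031, 808, 1128, 857 and 843 in aged obese libraries. Rpl3l was the higher of the pair in every library, and every aged lean library had more Rpl3 than every young lean one.

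The log2 ratio within a library averaged 3.27 ± 0.22 (SD, n = 4) in young lean, 3.36 ± 0.46 (n = 5) in young obese, 2.72 ± 0.20 (n = 5) in aged lean and 2.73 ± 0.19 (n = 5) in aged obese libraries. On the lean diet it was lower with age by a log2 difference of -0.55, a 1.47-fold lower ratio, with no overlap (exact two-sided permutation p = 0.0159, adjusted over 5 comparisons 0.0397). Aged obese against young lean gave the same difference of -0.55 with no overlap (exact permutation p = 0.0159, adjusted 0.0397); the 2 comparisons share the young lean libraries. For 4 against 5 libraries 0.0159 is the smallest p the test can give. On the high-fat diet the difference was -0.63, but young obese 3, with a ratio of 2.59, lay among the aged libraries, and the test did not pass after adjustment (exact permutation p = 0.0397, adjusted 0.0661). Without young obese 3 it was -0.82 and passed (exact permutation, adjusted p = 0.0265). Of the 10 runs that left out 1 library of this comparison, only that run changed the outcome. In the others the difference shrank to as little as -0.53, and the adjusted p of the permutation test reached 0.132. Without young obese 3, Rpl3 alone also rose with age on the high-fat diet (0.52, limma adjusted p = 0.0106). That was the only 1 of 19 runs to call it.

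Diet did not move the ratio beyond the spread between libraries, at 0.09 in young (exact permutation p = 0.762) and 0.01 in aged mice (0.976). As single genes, Rpl3l fell with age on the high-fat diet (-0.27, SE 0.07, limma adjusted p = 0.0242) and was at -0.09 on the lean diet (SE 0.07, 0.546). Rpl3 was at 0.46 on the lean diet (SE 0.15, adjusted p = 0.083) and 0.37 on the high-fat diet (SE 0.14, 0.109). The call of Rpl3l ended without aged obese 2 (0.0702), young obese 1 (0.0595) or young obese 5 (0.0632). Leaving out any library of the comparison raised the adjusted p of the ratio above 0.05 in both 4-against-5 comparisons, with the difference between -0.61 and -0.44, which a test on fewer libraries brings with it. Of the 50-base windows of Rpl3, 85.6% occur in some other annotated gene and none of those of Rpl3l do, so the value of Rpl3 depends more on how the authors assigned such reads.

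**Figure D4:**
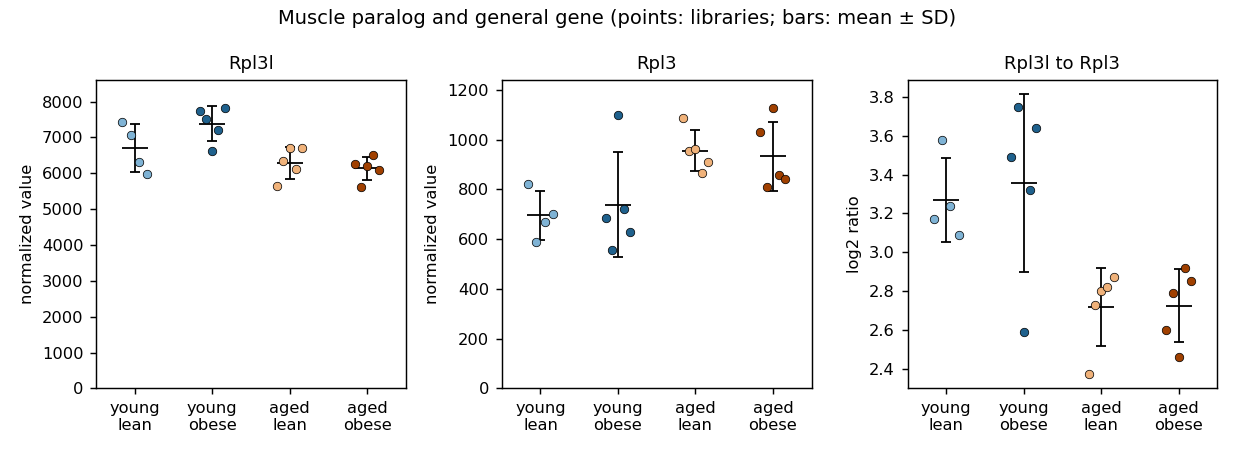
Normalized values of Rpl3l and Rpl3 (axes from 0) and their log2 ratio within a library (axis not from 0), by group, with 1 point per library and bars for the mean ± SD (n = 4, 5, 5 and 5). The ratio lies between 2.37 and 2.92 in the aged libraries and above 3 in the young ones except young obese 3, at 2.59.

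Several members with a known second role did not pass in any of the 5 pairwise comparisons. Rps27a, which is made fused to ubiquitin, ranged from -0.18 to -0.01, and its lowest adjusted p was 0.119. Rpsa, also known as the laminin receptor precursor, ranged from -0.10 to 0.05. Of the stalk proteins, Rplp0 ranged from 0.02 to 0.14, Rplp1 from -0.16 to 0.14 and Rplp2 from -0.15 to -0.06, and none passed. Neither did Fau, a fusion gene outside the symbol rule, or the ribosome-bound Rack1. Summing each member with its copies left 84 genes and gave 1 rise and 5 falls for the diet in young mice. It gave 4 rises and 2 falls for age on the high-fat diet, and 1 fall for age and diet together. Rps27rt was merged into Rps27, so the 5 falls in young mice are not the same 5 rows as above. They included Rps27, Rpl7a, Rps7 and Rpl10 (limma adjusted p = 0.0166, 0.0266, 0.0344 and 0.0409), and the remaining fall is not named here. The second fall with age on the high-fat diet was Rpl22l1 (-0.39, limma adjusted p = 0.0318).

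Some genes that build the ribosome fell in the diet comparison in young mice, and most did not pass. The counts below stand against 5.33% of all genes falling in that comparison, and no list was tested as a set. Of 58 ribosome biogenesis genes 11 fell and none rose, with a median of -0.18 and 52 negative. They included the ribosomal RNA methyltransferase Ftsj3 (-0.43, limma adjusted p = 0.0105), the helicase Ddx56 (-0.43, 0.011), Nol11 of the small subunit processome (-0.30, 0.0184) and the GTPase Gnl2 (-0.34, 0.0206). Of 19 tested RNA polymerase I genes 3 fell, Polr1a (-0.39, 0.00623), Polr1b (-0.36, 0.0206) and Taf1a (-0.50, 0.0223), and Polr1a and Polr1b were also called in the interaction (0.41 and 0.49, limma adjusted p = 0.043 and 0.0443). Of 13 chaperones and importers of ribosomal proteins 4 fell, the import receptors Ipo5 (-0.34), Kpnb1 (-0.28) and Ipo7 (-0.35) and the Rpl5 chaperone Heatr3 (-0.25). The interaction was called for Ipo5 (0.45, limma adjusted p = 0.0339) and Ddx56 (0.57, 0.0304).

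In the same comparison a minority of genes from other parts of the translation machinery fell. Of 47 initiation and elongation factors 12 fell, among them Eif5 (-0.38), Eif3j1 (-0.59), Eif1 (-0.44) and Eif4g2 (-0.30). Of 29 other genes with TOP mRNAs 4 fell, among them Naca (-0.54) and Btf3 (-0.24), the subunits of the nascent polypeptide-associated complex. The lists overlap: the rest of these 4 were Ipo5, also counted among the importers, and Eif3e, also counted among the factors. The regulators of mTOR and TOP mRNAs were near the share of all genes, with 2 of 34 tested falling, the translation repressor Eif4ebp2 (-0.59, limma adjusted p = 0.0149) and Tsc1 (-0.40, 0.0259), and Larp1 was at -0.15 (0.357). With age on the high-fat diet 4.16% of all genes rose and 4.86% fell. In that comparison 4 of the 47 factors rose, Eif3g (0.26), Eif5 (0.34), Eif3c (0.30) and Eif5b (0.26), and of the 29 TOP genes Ipo5 (0.28) and Naca (0.37) rose while Pabpc4 (-0.24) and Pabpc1 (-0.30) fell. Diet in aged mice changed none of the genes of these 6 lists.

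Proteasome subunits and mitochondrial ribosomal proteins, 2 other sets of genes for large complexes, are given side by side with the members. In young mice on the high-fat diet 19 of 31 proteasome subunits (61.3%) fell, with a median of -0.32. Of 78 mitochondrial ribosomal proteins 2 (2.56%) rose, Mrpl28 (0.37) and Mrps18c (0.33), with a median of 0.02. Of all genes 5.70% rose and 5.33% fell. With age on the high-fat diet 5 proteasome subunits (16.1%) rose (median 0.22), against 4.16% of all genes. No mitochondrial ribosomal protein passed (median -0.13, 66 of 78 negative). On the lean diet with age 1 proteasome subunit (3.23%) fell (median -0.14). The mitochondrial ribosomal proteins Mrpl38 (-0.30) and Mrps2 (-0.30), 2.56% of their list, fell (median -0.09). Both shares were near the 1.99% of all genes that fell. The members' medians of -0.08, 0.05 and -0.04 in these comparisons lay nearer to 0 than those of the proteasome subunits.

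**Figure D5:**
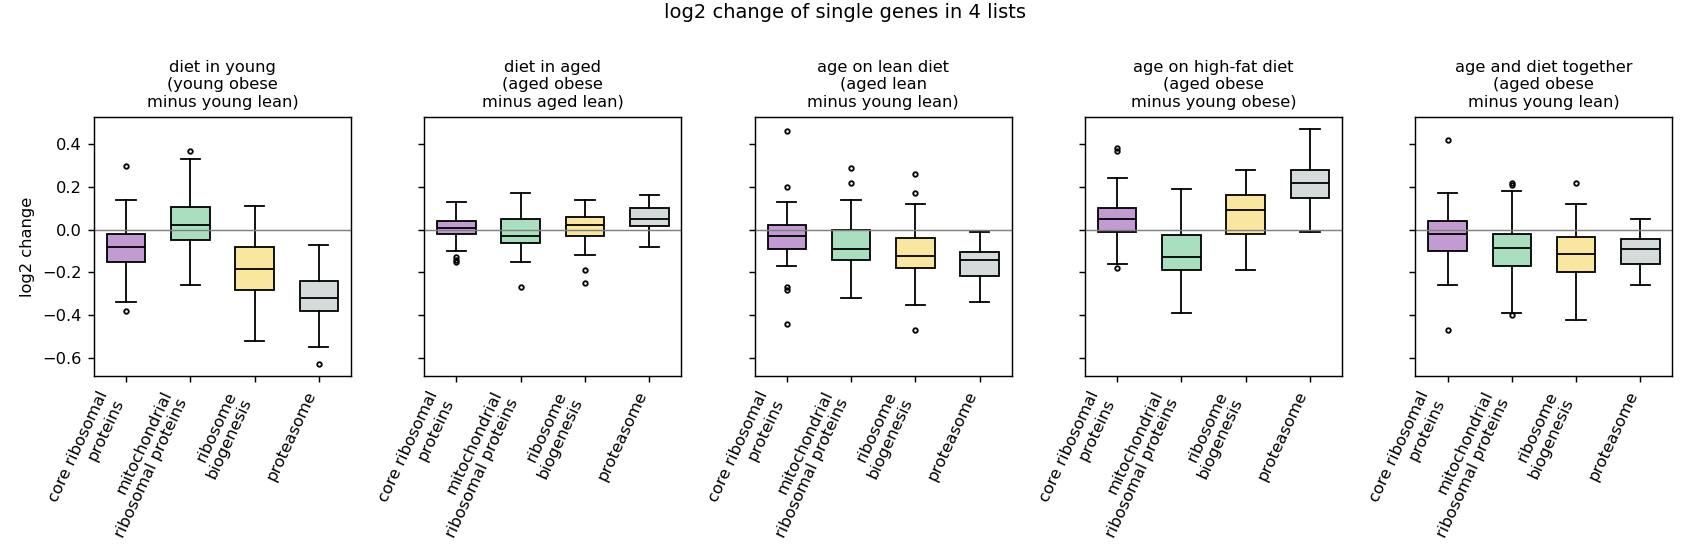
log2 change of single genes in the 77 core ribosomal protein genes, 78 mitochondrial ribosomal proteins, 58 ribosome biogenesis genes and 31 proteasome subunits, in 5 comparisons (line, median; box, quartiles; whiskers, the last value within 1.5 box lengths; points, genes beyond). In young mice on the high-fat diet the medians are -0.08, 0.02, -0.18 and -0.32 in that order, and in aged mice all 4 boxes lie near 0.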

How the data were processed

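The authors deposited 1 normalized signal value per gene and library. The submitters' processing notes list STAR 2.78a, DESeq2, Partek and mm39 without roles. How reads were counted and filtered, and the annotation, is not given in the sources used here. Per the labels' protocols, RNA was sequenced only from an integrity number of 7. Whole reads were not recovered from the signal (83.7 to 85.7% of values of up to 50 were whole within 0.02 of a read), so no count test was run. Values under 1e-06 occurred in all 19 libraries.

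The test was limma-trend (limma 3.58.1, R 4.3.3) on log2(value + 1). Genes with a mean of at least 10 were kept, 13367 of 14707 and all 87 members. The model had 4 group means, 15 residual and 4.37 prior degrees of freedom. P-values were adjusted by Benjamini-Hochberg over all genes within each of 5 pairwise comparisons and the interaction. The pseudocount makes fold changes of low genes too small. The Rpl3l to Rpl3 ratio was compared by the exact two-sided permutation test, adjusted over 5 comparisons. The rest used Python 3.11.15 (scipy 1.17.1, numpy 2.4.6, pandas 2.3.3) and, for plots, matplotlib 3.10.9.

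Lengths and 50-base windows came from GENCODE M21 transcripts (of a gene's protein-coding transcripts in the basic set, the one of median length). A copy is another row with at least 10% of its windows identical to the member's, or the member's symbol with -ps. The tendon score averages log2 values of Kera, Chad, Tnmd, Cilp2, Scx and Mkx. The clock score averages those of Clock, Arntl and Npas2 and subtracts the average of Ciart, Dbp, Hlf, Nr1d2, Per3 and Tef.

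The members and all lists were chosen with earlier results of these data known. Named are the called members, the 2 highest and 2 lowest changes of a comparison, the 3 highest and 3 lowest means, the paralogs, 8 members with known roles, and up to 4 called genes per list and comparison; the text prints part of these, and the values of 2 genes are not reported here. Alternatives covered the pseudocount, filter, scaling, library weights, robust moderation, the groups of a comparison alone, both scores and left-out libraries. The pair aged lean 2 and aged obese 2 and the sums with copies were added after seeing the data. The code was tested on simulated data.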

Additional observations from a re-analysis of the deposited data

Results flagged for a closer look

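In each group of 4 or 5 libraries the gap of the highest or lowest library to its nearest neighbour, divided by the group's range, was compared with Dixon's 95% critical value (0.829 for 4 libraries, 0.71 for 5). Chance flags about 1 in 20 groups, and 4 of 120 tests passed. Rpl39, a small protein of the large subunit, stood at 606 in young lean 1, with the other young lean libraries at 488 to 496. In young obese 3, Rps27a stood at 685 (others 586 to 602) and Rps7 at 2106 (others 1891 to 1925). The log2 ratio of Rpl3l to Rpl3 was 2.37 in aged lean 1, below the other aged lean libraries at 2.73 to 2.87. Leaving out young obese 3 kept Rps7 called in young mice, and leaving out aged lean 1 did not turn the sign of the age difference in the ratio on the lean diet.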

How the results depend on the processing

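Without young lean 1 and young obese 2 the number of members called was 10 for diet in young mice (6 as reported), 8 for age on the high-fat diet (5), 3 for age and diet together (1), 1 for age on the lean diet (0) and 3 for the interaction (0). Library weights gave 11, 13, 8, 1 and 4. With the tendon score the first and second were both 0, and with the clock score 0 and 1. The groups of a comparison alone gave 0 for diet in young mice and 2 for age and diet together. Quantile normalization and scaling to the total of non-member genes each gave 1 for age on the lean diet. Without aged lean 2 and aged obese 2 age on the high-fat diet gave 3. The cause was not tested. With 1 library left out in turn the counts ranged over 1 to 9 (diet in young), 0 to 0 (diet in aged), 0 to 2 (age, lean), 2 to 7 (age, high-fat), 1 to 3 (together) and 0 to 2 (interaction). The share of all genes called in each alternative run is not reported here. These counts therefore cannot tell a change of the members from a change in calls over the whole table.

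Without aged lean 2 and aged obese 2 the age difference in the Rpl3l to Rpl3 ratio was -0.55 on the lean diet. It was -0.56 for aged obese against young lean (exact permutation p = 0.0286, adjusted 0.0714 for both). Without young lean 1 and young obese 2 both were at -0.58 (exact permutation p = 0.0357, adjusted 0.0893). The unadjusted p was each time the smallest that the test can give for so few libraries, so these runs could not pass after adjustment as the others stood. The diet difference became -0.01 in aged and -0.04 in young mice under these same settings. With 1 library left out it ranged from -0.61 to -0.45 (age, lean), -0.61 to -0.44 (together), -0.82 to -0.53 (age, high-fat), -0.08 to 0.07 (diet in aged) and -0.01 to 0.28 (diet in young). The sign of the members' median turned with the scaling in 2 comparisons, to -0.03 (quantile) and -0.04 (non-member total) for diet in aged mice and to 0.01 and 0.02 for age on the lean diet. The median of all genes moved as well. In the same order it was 0.01 and -0.05 for diet in aged mice and -0.02 and 0.05 for age on the lean diet. Of 12 called pairs of member and comparison 4 stayed called whichever library was left out: Rpl10 and Rpl36al with age on the high-fat diet, Rps2 with diet in young mice and Rpl22l1 for both together. None of the 38 named pairs was reversed, and 13 that were not called passed under at least 1 alternative.

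No paired analysis was possible because the labels give each library its own number, with none shared between groups. The number of libraries, 4 or 5 a group, and unknown read counts limit precision.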
